A study of Mus musculus with 2 samples.

Results

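Voltage-gated sodium and calcium channel genes were followed in cerebrum RNA of laggard (lag) mice, whose mutation lies in Kif14, a kinesin of cytokinesis. The genes were taken from all probe sets, the groups of oligonucleotides that report 1 transcript on an Affymetrix array, that the platform annotation pairs with 1 gene alone named as a sodium channel alpha or beta subunit or as a calcium channel alpha1, alpha2delta or beta subunit. This gave 27 genes with 70 probe sets, out of 18194 genes with a probe set of their own. The set held 11 sodium and 16 calcium channel genes. The samples were cerebrum labelled mutant, without an allele count and called lag by the study, and cerebrum of a wild-type mouse, both at postnatal day 14 (P14), hybridised to 1 array each. Whether RNA of several mice was pooled is not stated. The recessive lag mutation arose spontaneously in a knockout line of mixed inbred background and was crossed to C57BL/6J. With 1 array per genotype no spread between mice can be had, and no test was made. All ratios are lag mutant over wild-type.

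Voltage-gated sodium channels carry the rising phase of the action potential. Each has a pore-forming alpha subunit and beta subunits that set its gating and its place in the membrane, and the channels cluster at the axon initial segment and, once an axon is myelinated, at the nodes of Ranvier. Voltage-gated calcium channels turn depolarisation into calcium entry. Their alpha1 subunit forms the pore and gives the channel its type, while the alpha2delta and beta subunits bring it to the surface and tune it. Mice with a defective Cacna1a, Cacna2d2 or Cacnb4 gene are ataxic, as in the tottering, ducky and lethargic strains. Lag mice are ataxic too, and the study described a disrupted cerebellar cortex in them. The RNA here came from cerebrum, so these signals do not show the expression of those genes in cerebellum.

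Most channel genes had nearly the same signal on both arrays. A signal is the linear intensity that the authors' software gave for a probe set, and a gene took the values of its brightest probe set. The background level was 54.7, the 95th percentile of 151 probe sets for olfactory receptors and other families silent in brain. By that level 22 of the 27 genes were measured, each above it on both arrays, and 5 were under it on both. Of the 22, none was at least 1.5-fold lower in the lag mutant and 1, Scn9a, was at least 1.5-fold higher. Among all 13599 genes measured, these limits were passed by 3.31% downward and 3.95% upward. At 2-fold neither direction held any channel gene, against 0.941% of all genes lower and 0.669% higher. The median log2 ratio was -0.06 for the 22 channel genes and 0.01 for all genes. The log2 ratio was -0.49 for the lowest, Scn1a, and 0.92 for the highest, Scn9a.

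In the lag mutant, 12 of the 22 genes (54.5%) lay within 1.1-fold of the wild-type signal, 16 (72.7%) within 1.2-fold and 19 (86.4%) within 1.3-fold. Of all genes measured, 44.3%, 70.1% and 82.3% lay within these limits. The median size of the log2 ratio was 0.13 for channel genes and 0.16 for all genes. Brightness differs between the sets: 11 of the 22 channel genes were among the 3400 brightest genes, where that median was 0.11, and 2 among the 3400 dimmest, where it was 0.25.

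**Figure D1:**
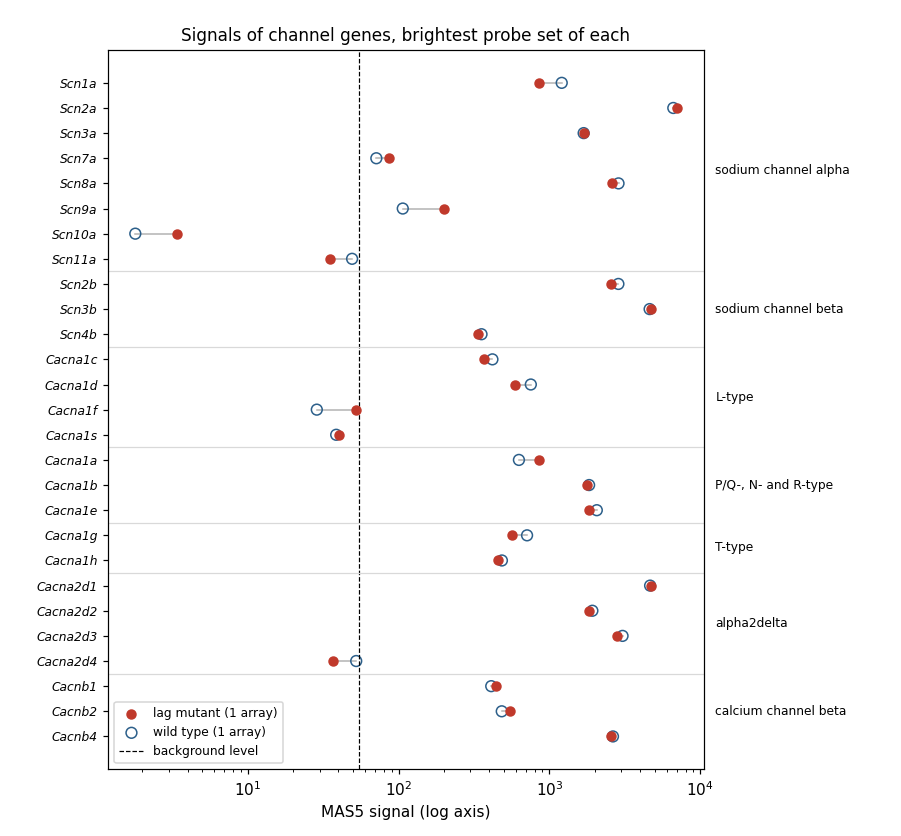
MAS5 signal of the brightest probe set of each of 27 channel genes, on a log axis, in the lag mutant (filled) and the wild-type (open), 1 array each. For 5 genes both points lie left of the dashed background level of 54.7, and most of the other 22 pairs nearly coincide, apart from Scn1a, Scn9a, Cacna1a, Cacna1d and Cacna1g.

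Among the sodium channel alpha subunits of brain, Scn1a had the lowest ratio. Scn1a encodes the channel on which parvalbumin interneurons depend most and which is mutated in Dravet syndrome. Its brightest probe set had a signal of 857 in the lag mutant and 1207 in the wild-type, 1.41-fold lower. A probe set designed on the same sequence record gave 171 in the lag mutant and 148 in the wild-type, and another gave 46.6 in the lag mutant, under background, and 73.4 in the wild-type. The dimmer probe sets thus lay on opposite sides of no change. The mean log2 ratio over the 3 probe sets was -0.24, with the signal under background raised to it. Those designed on the same record do not count as separate measurements. For genes as bright as Scn1a (mean signals of 560 to 1430), the log2 ratios had a standard deviation of 0.29, and 1.71% were at least 1.5-fold lower.

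Scn2a encodes the channel of unmyelinated axons and of initial segments early in development. It had a signal of 6960 in the lag mutant and 6628 in the wild-type, a log2 ratio of 0.07. All 4 of its probe sets were slightly higher in the lag mutant: besides the brightest they had 3941, 2720 and 95.8 in the lag mutant and 3374, 2295 and 71.3 in the wild-type. Scn8a, whose channel takes the place of the Scn2a product at nodes as myelin forms, had 2617 in the lag mutant and 2873 in the wild-type, a log2 ratio of -0.13. Its other probe sets went both ways, with 1555, 372 and 301 in the lag mutant, against 1434, 442 and 215 in the wild-type. Scn3a, which is most active before birth, had 1709 in the lag mutant and 1687 in the wild-type. By their brightest probe set, the genes of the early and the late nodal channel both lay within 1.1-fold, in a mutant sample where oligodendrocyte genes had far lower signals. In bulk tissue, fewer cells of a type and less RNA per cell cannot be told apart.

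Scn9a had the highest ratio of all members, and it was dim, as was Scn7a. Scn9a, known for pain-sensing neurons of the periphery, had a signal of 202 in the lag mutant and 107 in the wild-type, 1.89-fold higher. A further Scn9a probe set, designed on the same sequence record, had 82.1 in the lag mutant and 42.8, under background, in the wild-type. These probe sets share their target, so they do not count as separate measurements, and the brighter carries the array's mark for probes that may match other transcripts. The other 3 probe sets of Scn9a were under background on both arrays. If the background is set at 142, the 99th percentile, the log2 ratio of Scn9a is 0.50, short of 1.5-fold. Scn7a encodes a sodium-sensing channel of glia and circumventricular organs. It had 87.1 in the lag mutant and 71.3 in the wild-type by its brightest probe set, and 90.6 in the lag mutant and 44.9, under background, in the wild-type by the next, designed on the same record. Both genes belonged to the 3400 dimmest genes measured, with mean signals up to 194, where 9.56% of genes passed 1.5-fold upward and 6.76% downward. Scn10a and Scn11a, further channels of sensory neurons, were under background on both arrays, at 3.38 and 35.2 in the lag mutant and 1.80 and 49.2 in the wild-type. Of the 5 sensory neuron markers examined, 3 had a probe set. Of these Isl1 had 597 in the lag mutant and 399 in the wild-type, Prph had 212 in the lag mutant and 167 in the wild-type, and Trpv1 was under background on both arrays. The summed signal of Isl1 and Prph was 809 in the lag mutant and 566 in the wild-type. The samples were cerebrum, and Trpv1, Scn10a and Scn11a were under background, so this sum is not a measure of sensory neurons. The source of the Scn9a difference was not tested.

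In the mouse RefSeq table, Scn3a, Scn2a, Scn1a, Scn9a and Scn7a follow each other on chromosome 2, with 3 other coding genes between Scn2a and Scn1a. Scn1a and Scn9a are direct neighbours and had the lowest and the highest ratio of the whole set. The 250 bases before their annotated starts, from RefSeq on GRCm38.p6, are shown with those of Cacna2d1, whose brightest signals hardly differed, because they show how far these promoters differ in CpG content. Capitals mark each CpG dinucleotide, and all run 5′ to 3′ on the strand of the gene. The Scn1a stretch is chr2:66440838-66441087 on the minus strand with 4 CpG, that of Scn9a is chr2:66634963-66635212 on the minus strand with 5, and that of Cacna2d1 is chr5:15934441-15934690 on the plus strand with 36.
Scn1a: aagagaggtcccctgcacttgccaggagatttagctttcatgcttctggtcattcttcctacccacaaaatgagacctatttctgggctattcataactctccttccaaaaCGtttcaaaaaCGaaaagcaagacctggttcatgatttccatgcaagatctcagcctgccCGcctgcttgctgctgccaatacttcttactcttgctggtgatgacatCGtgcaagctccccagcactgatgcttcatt
Scn9a: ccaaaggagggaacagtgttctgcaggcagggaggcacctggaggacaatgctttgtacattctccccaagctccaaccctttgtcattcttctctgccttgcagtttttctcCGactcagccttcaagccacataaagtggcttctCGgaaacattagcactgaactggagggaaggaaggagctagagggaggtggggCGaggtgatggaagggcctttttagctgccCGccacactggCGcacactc
Cacna2d1: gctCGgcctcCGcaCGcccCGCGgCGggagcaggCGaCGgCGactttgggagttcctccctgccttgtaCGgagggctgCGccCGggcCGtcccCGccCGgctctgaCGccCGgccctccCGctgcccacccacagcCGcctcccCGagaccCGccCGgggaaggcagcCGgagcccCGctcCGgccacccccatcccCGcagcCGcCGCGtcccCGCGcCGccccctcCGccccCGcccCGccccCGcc

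Promoters were found for 21 of the 27 genes, in 30 windows. The median number of CpG in the 250 bases was 5 for sodium channel genes (11 windows) and 23 for calcium channel genes (19 windows), against 6 over all 32851 windows of the table. Low counts also stood before genes whose signals differed little. Scn2a, with a log2 ratio of 0.07, had windows with 2 and 9 CpG, and Scn2b, at -0.17, had 1 CpG. A GC box (GGGCGG on either strand, which holds a CpG itself) was present in 12 of the 30 windows, 40%, and in 32.7% of all windows. CCAAT on either strand stood in 7 windows, 23.3%, against 33.8% of all, and TATAAA in 2 windows, 6.67%, against 12.4%. Neither the Scn1a nor the Scn9a stretch held a GC box, while the Scn1a stretch held CCAAT. These matches describe the letters only.

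The sodium channel beta subunit genes stayed closer together. Scn2b, whose product is linked to the alpha subunit by a disulfide bond, had 2551 in the lag mutant and 2867 in the wild-type, a log2 ratio of -0.17. Its next probe set had 305 in the lag mutant and 246 in the wild-type, on the other side of no change. Scn3b had 4697 in the lag mutant and 4619 in the wild-type, and 193 in the lag mutant and 154 in the wild-type by a dimmer probe set. Scn4b, whose product takes part in the resurgent sodium current of fast-firing neurons, had 335 in the lag mutant and 355 in the wild-type. All 3 lay within 1.2-fold by their brightest probe set.

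Of the calcium channel alpha1 genes, Cacna1a had the highest ratio by its brightest probe set. Cacna1a forms the P/Q-type channel that triggers transmitter release at most central synapses and is abundant in Purkinje cells. It had a signal of 855 in the lag mutant and 628 in the wild-type, 1.36-fold higher. A second probe set had 271 in the lag mutant and 264 in the wild-type, and a dimmer one had 75.0 in the lag mutant and 168 in the wild-type, 2.24-fold lower. No other channel gene had probe sets so far apart: the log2 ratios of these 3 spanned 1.61, and their mean was -0.23. The signals therefore give Cacna1a no single direction. Cacna1b, the N-type channel of presynaptic terminals, had 1783 in the lag mutant and 1834 in the wild-type, and its 4 probe sets lay between log2 ratios of -0.13 and 0.12. Cacna1e, the R-type channel, had 1821 in the lag mutant and 2062 in the wild-type, a log2 ratio of -0.18.

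The L-type genes of brain both had somewhat lower signals by their brightest probe set. Cacna1d, which supports pacemaking at low voltages, had 594 in the lag mutant and 753 in the wild-type, 1.27-fold lower, and 96.8 in the lag mutant and 103 in the wild-type by its dimmer probe set. Cacna1c, the main L-type gene of cortex and heart, had 371 in the lag mutant and 419 in the wild-type, while its other probe set had 293 in the lag mutant and 256 in the wild-type. Cacna1f, known for photoreceptor terminals, was under background on both arrays, at 52.0 in the lag mutant and 28.7 in the wild-type. So were all 3 retina markers with a probe set, Crx, Gnat1 and Pde6b. Cacna1s, the skeletal muscle gene, was under background as well, at 40.2 in the lag mutant and 38.6 in the wild-type. Cacna1s lies near the mutated gene: 6 coding genes separate it from Kif14 on chromosome 1, and these arrays give no ratio for it. Kif14 itself was under background, at 0.733 in the lag mutant and 6.85 in the wild-type. The study reported no noticeable difference in its RNA level between lag mice and littermate controls. For both reasons Kif14 does not check the labels.

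The T-type genes encode channels that open near rest and drive burst firing in thalamus. Cacna1g had 564 in the lag mutant and 711 in the wild-type, 1.26-fold lower, by its only probe set. Cacna1h had 460 in the lag mutant and 484 in the wild-type, and 68.3 in the lag mutant and 61.2 in the wild-type by a dim probe set. Both of these genes had lower brightest signals in the lag mutant; Cacna1i, a further T-type gene, was not analysed here. The 6 thalamus markers had a median log2 ratio of 0.09. None was at least 1.5-fold lower (3.31% of all genes measured) and 1, Gbx2, was at least 1.5-fold higher (3.95%). Their summed signal was 8219 in the lag mutant and 7612 in the wild-type, the brightest being Calb2, at 3089 in the lag mutant and 3028 in the wild-type, and Tcf7l2, at 3029 in the lag mutant and 2395 in the wild-type. The part of thalamus in the T-type signals was not tested.

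The genes of the auxiliary calcium channel subunits, among them those of the ducky and lethargic strains, differed little in this cerebrum RNA. Cacna2d1, whose product binds gabapentin, had 4696 in the lag mutant and 4653 in the wild-type, while its 4 dimmer probe sets had 367, 96.0, 72.4 and 68.0 in the lag mutant, against 406, 108, 99.2 and 67.6 in the wild-type. Cacna2d2, the ducky gene, had 1822 in the lag mutant and 1927 in the wild-type, and Cacna2d3 had 2802 in the lag mutant and 3055 in the wild-type. These 3 genes lay within 1.1-fold. Cacna2d4, a retinal subunit, was under background on both arrays, at 36.8 in the lag mutant and 52.4 in the wild-type. Cacnb4, the lethargic gene, had 2553 in the lag mutant and 2639 in the wild-type, and all 3 of its probe sets were slightly lower. Cacnb2, known from heart, had 550 in the lag mutant and 483 in the wild-type. Cacnb1, first known from skeletal muscle, had 441 in the lag mutant and 412 in the wild-type, and 194 in the lag mutant and 131 in the wild-type by a dimmer probe set, 1.48-fold higher. All 6 measured alpha2delta and beta genes lay within 1.2-fold by their brightest probe set. Of 6 skeletal muscle markers 3 were measured and none differed by 1.5-fold, as 3.31% of all genes measured did downward and 3.95% upward. Their summed signal was 662 in the lag mutant and 521 in the wild-type, the brightest being Acta1, at 520 in the lag mutant and 384 in the wild-type, and Ckm, at 90.6 in the lag mutant and 77.3 in the wild-type.

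**Figure D2:**
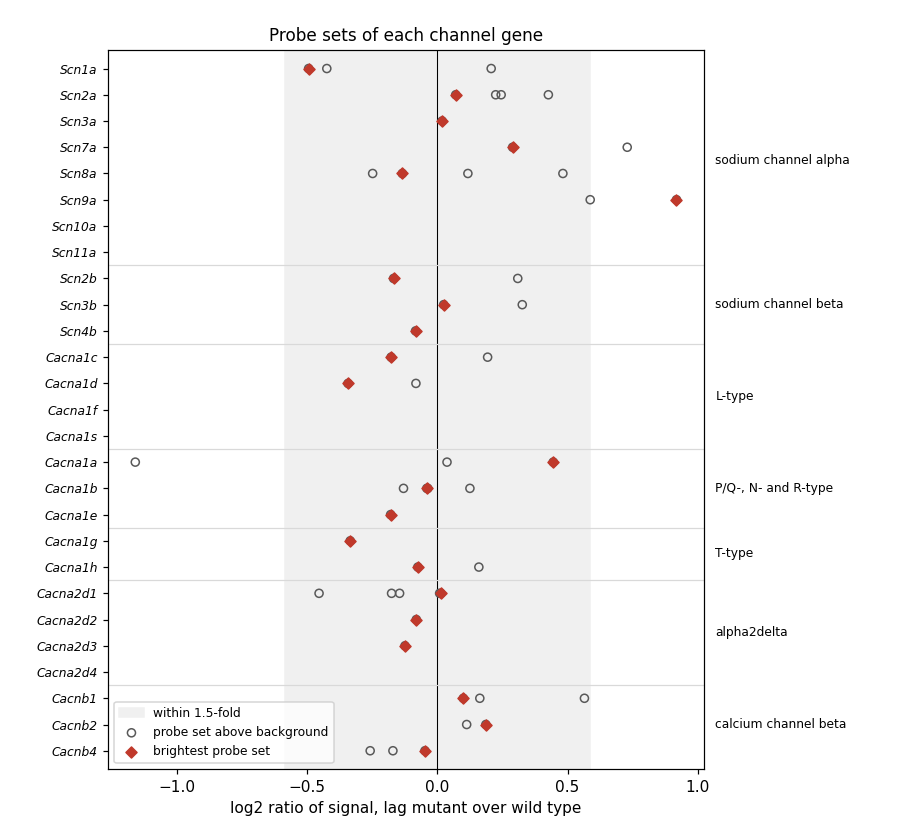
For 51 probe sets of 22 channel genes above background on at least 1 array, the log2 of the lag mutant signal over the wild-type signal is plotted (circles), with the brightest probe set of each gene as a diamond and signals under background raised to it. The dim Cacna1a probe set at -1.16 lies far left of the other probe sets of that gene, and the shaded band is 1.5-fold.

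Probe sets of a channel gene often lay on both sides of no change. Above background on at least 1 array were 51 of the 70 probe sets. Of these 1 was at least 1.5-fold lower (Cacna1a) and 3 were at least 1.5-fold higher (1 of Scn7a and both of Scn9a). This is 1.96% lower and 5.88% higher, against 4.75% and 4.28% of all 24562 such probe sets. Of 16 channel genes with at least 2 such probe sets, 8 (50%) had log2 ratios of both signs, as had 55.0% of all such genes. The median distance between the lowest and the highest log2 ratio of a gene was 0.36 for channel genes and 0.33 for all genes.

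**Figure D3:**
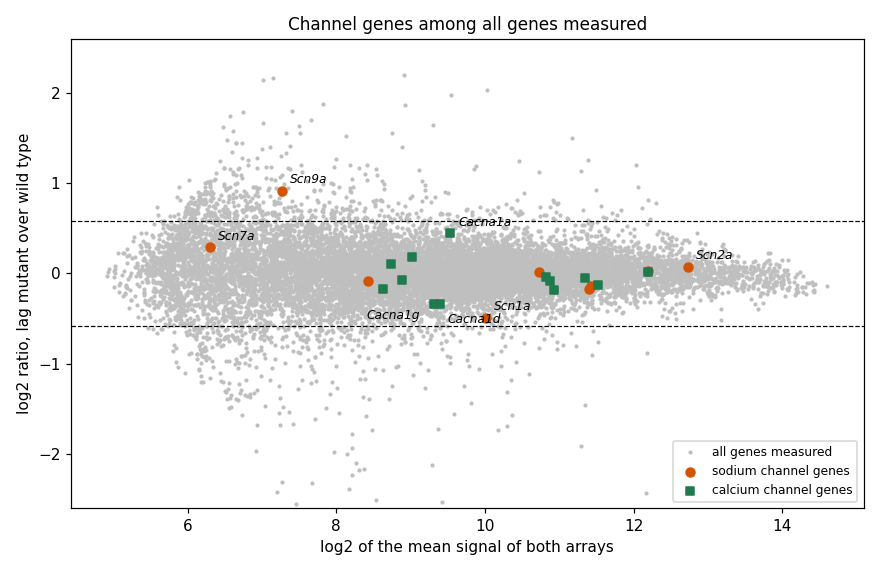
Log2 of the lag mutant signal over the wild-type signal against the log2 of the mean signal, for 13599 genes (grey), sodium channel genes (circles) and calcium channel genes (squares). Of the channel genes, Scn9a alone lies outside the dashed lines at 1.5-fold, in the dim range where the grey cloud is wide, and 14 other genes lie beyond the axis.

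Partners of the channels were examined from a list of 48 anchoring, modulating and related proteins, of which 40 had a probe set and 34 were measured. In the lag mutant 3 had signals at least 1.5-fold lower, against 3.31% of all genes measured, and the other 31 lay within 1.5-fold. The median over the list was -0.04. Fgf14, a cytoplasmic fibroblast growth factor homologue that binds sodium channels at the initial segment, had 500 in the lag mutant and 942 in the wild-type, 1.88-fold lower. Its next probe set had 428 in the lag mutant and 996 in the wild-type, but the other two had 690 and 98.0 in the lag mutant and 536 and 66.8 in the wild-type, so that its probe sets split evenly. Nfasc encodes neurofascin, which holds sodium channels at nodes in its neuronal form and the paranodal junction in its glial form. All 3 of its probe sets were lower, at 462, 260 and 84.0 in the lag mutant and 765, 327 and 269 in the wild-type. Hvcn1, a voltage-gated proton channel gene, had 63.2 in the lag mutant and 99.2 in the wild-type, near background. The brightest partners were close to the wild-type: Ank2 had 10472 in the lag mutant and 9945 in the wild-type, and Fgf13 had 9426 in the lag mutant and 9036 in the wild-type. Ank3, the ankyrin that anchors sodium channels at initial segments and nodes, had 7766 in the lag mutant and 9214 in the wild-type, and all 6 of its probe sets above background were lower, 1 of them, with 85.4 in the lag mutant and 195 in the wild-type, by 2.29-fold. Fgf12 had 3348 in the lag mutant and 3585 in the wild-type.

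Cell type markers showed what else differed between the samples. All 10 general neuron markers were above background and within 1.5-fold, with a median log2 ratio of 0.06; Stmn2 had 16820 in the lag mutant and 17992 in the wild-type, and Snap25 had 16408 in the lag mutant and 15349 in the wild-type. Against 3.31% of all genes measured, all 9 measured oligodendrocyte markers were at least 1.5-fold lower. Their median log2 ratio was -2.54, with a summed signal of 2359 in the lag mutant and 32049 in the wild-type. Mbp had 444 in the lag mutant and 18812 in the wild-type and Cnp had 1434 in the lag mutant and 7730 in the wild-type, while Mobp, Mog, Ermn and Opalin were under background in the lag mutant only. Nfasc was lower together with these markers, and their part in its difference was not tested.

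Inhibitory neuron markers had a median log2 ratio of -0.28. Of the 10, 4 were at least 1.5-fold lower (3.31% of all genes measured) and none was higher by as much (3.95%). Their summed signal was 22473 in the lag mutant and 24116 in the wild-type. Gad1 had 8069 in the lag mutant and 8843 in the wild-type, and Sst had 5144 in the lag mutant and 4177 in the wild-type. The 4 lower ones, named after their values were seen, were Vip, Dlx1, Dlx2 and Pvalb. Pvalb, the parvalbumin gene of the interneurons that rely on Scn1a, had 255 in the lag mutant and 391 in the wild-type. Besides Sst, 2 interneuron markers were not lower. Npy had 3411 in the lag mutant and 2942 in the wild-type, and Lhx6 had 466 in the lag mutant and 461 in the wild-type. Excitatory neuron markers had a median log2 ratio of 0.32, with 2 of 7, Nrgn and Tbr1, at least 1.5-fold higher (3.95% of all genes measured). None was lower by as much (3.31%). Their summed signal was 23634 in the lag mutant and 18766 in the wild-type. Camk2a had 4249 in the lag mutant and 5042 in the wild-type, and Slc17a6 had 4316 in the lag mutant and 4373 in the wild-type. The part of either population in the Scn1a difference was not tested. Of 8 measured Purkinje and cerebellar granule neuron markers 2, Pcp2 and Gabra6, were at least 1.5-fold lower (3.31% of all genes measured). None was higher by as much (3.95%). Pcp2 had 36.2 in the lag mutant and 271 in the wild-type, and Gabra6 had 41.6 in the lag mutant and 144 in the wild-type. Both were under background in the lag mutant only. The whole list had a summed signal of 15621 in the lag mutant and 14737 in the wild-type. Its brightest were Zic1, at 6469 in the lag mutant and 4938 in the wild-type, and Calb1, at 4826 in the lag mutant and 4491 in the wild-type. The samples were labelled cerebrum, not cerebellum, and Cbln3, also on the list, was under background on both arrays. The sum is therefore not a measure of cerebellar neurons, and their part in the P/Q-type signals was not tested. The remaining lists had median log2 ratios of -0.07 for striatum, -0.19 for astrocytes and 0.45 for microglia. For endothelium and pericytes the median was -0.15, and for oligodendrocyte precursors -0.89. It was -0.56 for the 2 of 4 heart muscle markers that were measured, but both were dim. Nppa had 93.0 in the lag mutant and 128 in the wild-type. Tnnt2 had 27.2, under background, in the lag mutant and 86.1 in the wild-type.

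**Figure D4:**
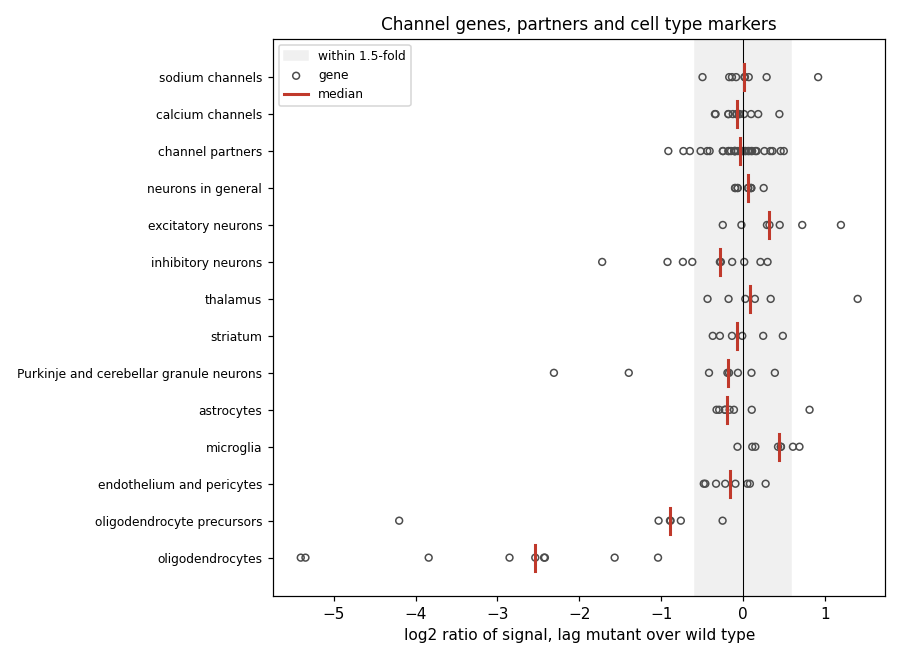
Log2 of the lag mutant signal over the wild-type signal for channel genes, their partners and cell type markers above background on at least 1 array; each circle is a gene and the red bar is the median of its list. The 9 oligodendrocyte markers lie left of the shaded 1.5-fold band, while 21 of 22 channel genes and all 10 general neuron markers lie inside it.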

How the data were processed

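Cerebrum RNA of 1 lag mutant and 1 wild-type sample at P14 was hybridised to 1 Affymetrix mouse genome array each, from labelled cRNA made with a kit that primes at the 3' end. The authors calculated a signal intensity per probe set with MAS5, named in the submitters' processing notes, at default settings with global scaling, and deposited linear values. The target of that scaling was not stated, but the mean signal without 2% of probe sets at each end was 500 on both arrays. The median signal was 98.3 on the lag mutant and 105 on the wild-type array (45101 probe sets). The 2 arrays limit the precision.

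From these intensities log2 ratios were computed. Probe sets were named where the annotation gave 1 gene (34958), not where it gave several (932) or none (9211), and gene identifiers served to bring symbols up to date with RefSeq on GRCm38.p6 (34754 matched). Signals under the background level, 1 level for both arrays, were raised to it. The members and lists were chosen with earlier results of these data known. All members, partners at least 1.5-fold different or among the 4 brightest, and the 2 brightest markers of lists set beside a member were named; further names were chosen once values were known. The calculation was tested on simulated data. Alternative settings changed the background level, probe set, normalization, filter and fold. Python 3.11.15, numpy 2.4.6, pandas 2.3.3 and matplotlib 3.10.9 were used.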

Additional observations from a re-analysis of the deposited data

How the results depend on the processing

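No paired analysis was possible because only 1 array stood for either genotype, and for the same reason no replicate could be left out. The count of channel genes at least 1.5-fold lower was 0 in every alternative but 1. With the probe set of largest change it was 1 (Cacna1a), where 7.46% of all genes were lower by as much. The count at least 1.5-fold higher was 1 in most alternatives. It was 0 with a background level of 142, the 99th percentile, where signals of Scn9a on the wild-type array were raised to that level. With no background level it was 3 of 27, as Cacna1f and Scn10a, under the level of 54.7 on both arrays, enter. With the probe set of largest change it was 2, as Scn7a is added. Of all genes, 2.12%, 12.2% and 6.92% were higher by as much in these alternatives, in that order. At 2-fold the count of channel genes higher was 0, against 0.669% of all genes. The median log2 ratio of sodium channel genes moved to 0.33 with the probe set of largest change, a choice that by construction favours extreme probe sets; the medians of all channel genes, calcium channel genes and partners moved by less than 0.1. Of 197 pairs of a channel gene and an alternative, 189 moved by less than the standard deviation of genes of like signal and 8 by more, 7 of them with the probe set of largest change. Cacna1a turned to -0.23 with the mean over its probe sets and to -1.16 with the probe set of largest change. The sign of 7 channel genes turned in at least 1 alternative, Scn1a stayed between -0.49 and -0.24, and Scn9a stayed between 0.50 and 0.99. Median scaling shifted all ratios by 0.03.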
